A study of Mus musculus with 9 samples.

Results

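The genes described here encode the proteasome, the particle that degrades ubiquitin-tagged proteins, in the cerebellum of a mouse model of spinocerebellar ataxia type 3 (SCA3). They were taken by symbol, as the protein-coding genes whose names begin with Psma, Psmb, Psmc, Psmd or Psme followed by a digit, and 45 of the 37816 genes in the count data met that rule. Of these, 43 had enough counts to be tested. The other two, Psma8, an alpha subunit of spermatogenic cells, and Psmb11, the thymus-specific beta subunit, stood at or near the limit of detection. Psmc3ip was taken by its prefix alone: it is a cofactor of meiotic recombination and no subunit of the particle. A further 3 symbols that match the prefix belong to pseudogenes, were left out and had at most 2 counts in any library.

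Each library was made from cerebellar RNA of a mouse of C57BL/6 background, harvested at 18 months of age. All 9 mice, the controls included, carry a yeast artificial chromosome (YAC) bearing human ATXN3, and its CAG repeat encodes 15 glutamines in the 15Q control group and 84 in the SCA3 groups. The 84Q+IGF-1 mice received 50 mg/kg of insulin-like growth factor 1 (IGF-1) by weekly intraperitoneal injection from 9 months of age. The labels call the 15Q and 84Q mice untreated, and the methods of the study give them buffer injections. Every group had 3 libraries. The 15Q line came from a laboratory and the 84Q line from a repository, so that CAG length and line of origin cannot be told apart. The transgene carries the regulatory sequence of the human gene rather than a promoter of 1 cell type, the tissue mixes neurons and glia, and a change in RNA per cell cannot be told apart from a change in the number of cells of a type.

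The 26S proteasome joins a 20S core to 19S caps. The core is a barrel whose outer rings of alpha subunits gate the entrance and whose inner rings of beta subunits hold the proteolytic sites, and the cap binds ubiquitin chains, removes them and threads the substrate inward with a ring of ATPases. In cells exposed to interferon the catalytic beta subunits are exchanged for the immunoproteasome forms Psmb8, Psmb9 and Psmb10. Polyglutamine ataxin-3 is itself a deubiquitinase that binds ubiquitin chains, and proteasome components are found in its inclusions.

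The libraries held between 17482654 and 58269196 counts on genes, with all 3 of the 15Q group among the 5 deepest, and the proteasome genes took between 0.217% and 0.246% of each. Levels are given as CPM, the counts of a gene scaled to library size by the TMM method of edgeR, or as TPM, which also divides by exon length, where genes are compared with each other. Granule and Purkinje cell markers were abundant in every library, with summed levels of 4436 to 5278 CPM and 6900 to 7774 CPM. The 8 choroid plexus markers summed to 480 and 469 CPM in 15Q replicates 1 and 3 and to 998 CPM in 84Q replicate 2, against 25.4 to 64.5 CPM in the other libraries. Intestinal epithelium markers summed to 23.1 to 36.7 CPM in the 15Q libraries and to 4.17 to 6.07 CPM in the rest, and skeletal muscle markers to 10.7 to 16.6 CPM and 0.967 to 2.41 CPM. These tissues are no part of the cerebellum. The intestinal and muscle shares differed with the same groups that are compared below, while choroid plexus markers were high in some libraries of 15Q and 84Q and low in others. Other markers moved as well. Of 6 Purkinje cell markers, 1 was called higher in 84Q against 15Q and over the 6 libraries with the expanded tract, where 1.54% and 4.04% of all genes were called higher. Another 1 of the 6 lay below 0 in each comparison with 15Q. Of 5 astrocyte and Bergmann glia markers, 1 was called lower in 84Q+IGF-1 against 15Q and 2 over the 6 libraries, where 2.63% and 6.01% of all genes were called lower. Over the 6 libraries 2 of these 5 lay above 0, 1 of them at an unadjusted p under 0.05. Of 5 oligodendrocyte markers, 1 was called lower in 84Q+IGF-1 against 15Q, with 4 below 0, and 1 over the 6 libraries, with 2 below 0, and in 84Q+IGF-1 against 84Q all 5 lay below 0, with 4 at an unadjusted p under 0.05 and 0 called. Of 4 endothelial markers, 3 lay below 0 over the 6 libraries, with 1 called lower, and 1 lay above 0, at an unadjusted p under 0.05 and not called. The 5 blood markers had a median of -1.15 over the 6 libraries, with 3 at an unadjusted p under 0.05 and 0 called. They summed to 47.4, 211 and 32.3 CPM in 15Q, 22.9, 34.9 and 80.9 CPM in 84Q and 58.5, 39.3 and 28.2 CPM in 84Q+IGF-1. The high level of blood markers in 15Q thus comes from replicate 2. The part of all these markers in the values of the proteasome genes was not tested.

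The subunits of the proteasome stood at unequal levels. Among the 7 alpha and 7 beta genes of the standard core, the mean TPM over the 9 libraries ran from 41.5 for Psmb1 to 142 for Psma6, a ratio of 3.42. The particle holds these subunits in equal number. With coding length in place of exon length the ratio was 3.25, but the order changed, with Psma7 highest at 120 TPM and Psma5 lowest at 36.9 TPM. The 6 ATPases of the cap, which unfold the substrate, ran from 44.5 TPM for Psmc2 to 375 TPM for Psmc5, the highest level of any of these genes. The lid, which carries the deubiquitinase Psmd14, ran from 47.9 TPM for Psmd13 to 132 TPM for Psmd7, the binding partner of Psmd14. The chaperones that help to assemble the base, Psmd5, Psmd9 and Psmd10, were lower, at 11.0 to 23.0 TPM.

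The alternative caps of the core differed widely in level. Psme3, which forms a nuclear activator, stood at 141 ± 5.56 TPM (SD, n = 9), Psme4, which encodes the large activator PA200, at 32.3 ± 2.96 TPM, and Psme2 and Psme1, the interferon-induced pair, at 29.0 ± 3.11 and 22.8 ± 1.57 TPM. Psme2b, a near copy of Psme2, was at 2.27 ± 1.12 TPM. Of its 31-base words, 76.5% also occur in Psme2, so that its reads cannot be assigned with certainty. Psma8 stood at 0.465 TPM and Psmb11 at 0.0783 TPM.

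**Figure D1:**
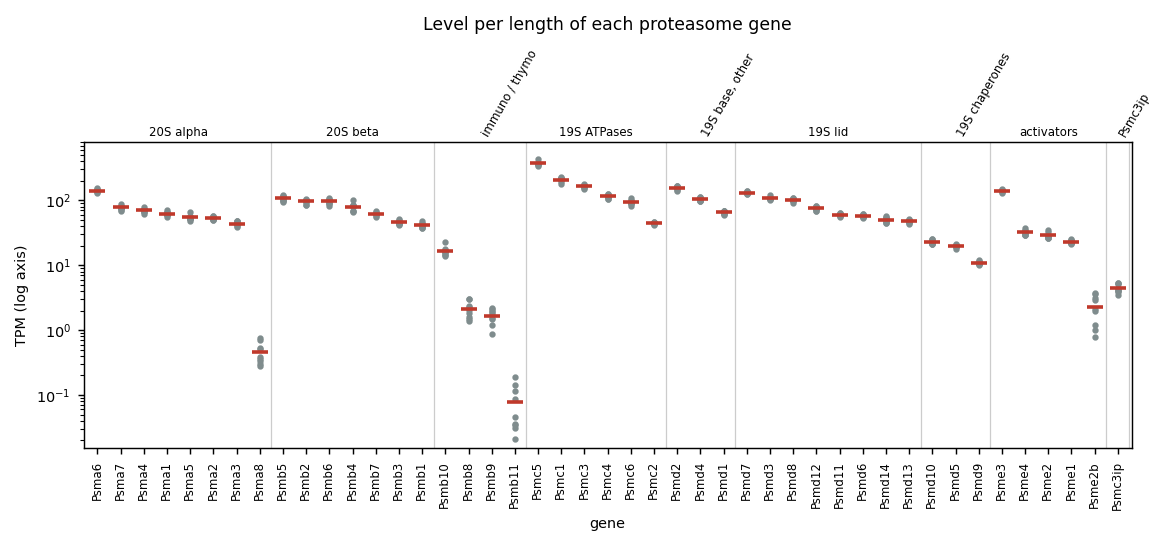
Level of each proteasome gene in TPM (log axis), grouped by place in the particle. Grey points are the 9 libraries and red bars their means, which run from 0.0783 TPM for the thymic Psmb11 to 375 TPM for the ATPase Psmc5.

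Psma8 was close to the detection floor of 3 counts, which stood between 0.0515 and 0.172 CPM by library. Its levels were 0.22, 0.32 and 0.32 CPM in the 15Q libraries, 0.24, 0.48 and 0.46 CPM in the 84Q libraries and 0.21, 0.19 and 0.17 CPM in the 84Q+IGF-1 libraries. Psmb11 was at 0.04, 0.02 and 0.14 CPM, at 0.17, 0.04 and 0.06 CPM, and at 0.04, 0.23 and 0.10 CPM in the same order. Neither passed the filter on low counts. Psma8 entered fits with no filter or with fewer libraries and Psmb11 the fit with no filter, and neither was called in them.

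The first comparison sets 84Q against 15Q, which differ in line of origin as well as in CAG length. The clearest value was that of Psmb4, the beta subunit whose addition completes the ring (chromosome 3, 94884093 to 94886961, GRCm38, minus strand). It stood at 33.1, 31.7 and 32.5 CPM in the 15Q libraries and at 40.6, 41.3 and 50.4 CPM in the 84Q libraries. Every 84Q library lay above every 15Q library, and 84Q replicate 3 stood apart at the top. The log2 fold change was 0.44 ± 0.08 (SE; 95% interval 0.26 to 0.63), with an adjusted p of 0.0243 in edgeR's quasi-likelihood test. Without 15Q replicate 2 the value was 0.43 and the adjusted p 0.111, and without the 3 libraries highest in choroid plexus markers 0.52 and 0.303. The latter fit keeps 1 library of 15Q, whose spread is taken from the other groups, so that its p says little.

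Psmb4 was the only member called at an adjusted p under 0.1, in the higher direction, where 1.54% of all 19353 genes were called, and no member also reached the fold of 1.5 that the study's methods require, as 0.238% of all genes did. A log2 fold change above 0 was found in 36 of the 43 members and in 49.7% of all genes. At an unadjusted p under 0.05, 16 of the 43 members were higher, beside 9.04% of all genes, and 1 was lower, beside 10.4%. The number in either direction, 17, became 7 without 84Q replicate 3 and 19 without 84Q replicate 2. In 16 members, or 37.2%, all 3 libraries of 84Q lay above all 3 of 15Q, where the share over all genes was 11.9%, and in none did they lie below, as in 13.5% of all genes. The median log2 fold change of the members was 0.13, against -0.00 over all genes. The values were small: apart from Psmb4, the tested members lay between -0.17 and 0.33.

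The beta ring had a higher median than the alpha ring, 0.24 against 0.14, a difference that was not tested. All 7 of its genes had a log2 fold change above 0, and 6 had an unadjusted p under 0.05. Psmb6, the subunit with caspase-like activity, stood at 38.4, 43.0 and 40.1 CPM in 15Q and at 48.9, 46.8 and 48.4 CPM in 84Q. Psmb5, with chymotrypsin-like activity, stood at 21.2, 21.8 and 22.0 CPM against 26.9, 23.6 and 27.3 CPM. Both were higher in every 84Q library than in any 15Q library, but their log2 fold changes of 0.24 ± 0.07 and 0.26 ± 0.08 had adjusted p of 0.114 and 0.117. Psmb7, the remaining catalytic subunit, with trypsin-like activity, was at 53.3, 52.7 and 53.1 CPM against 57.7, 48.0 and 53.9 CPM. Its groups overlapped, its log2 fold change was 0.00 ± 0.08 (95% interval -0.17 to 0.18), and no test was run of its difference from Psmb5 or Psmb6.

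**Figure D2:**
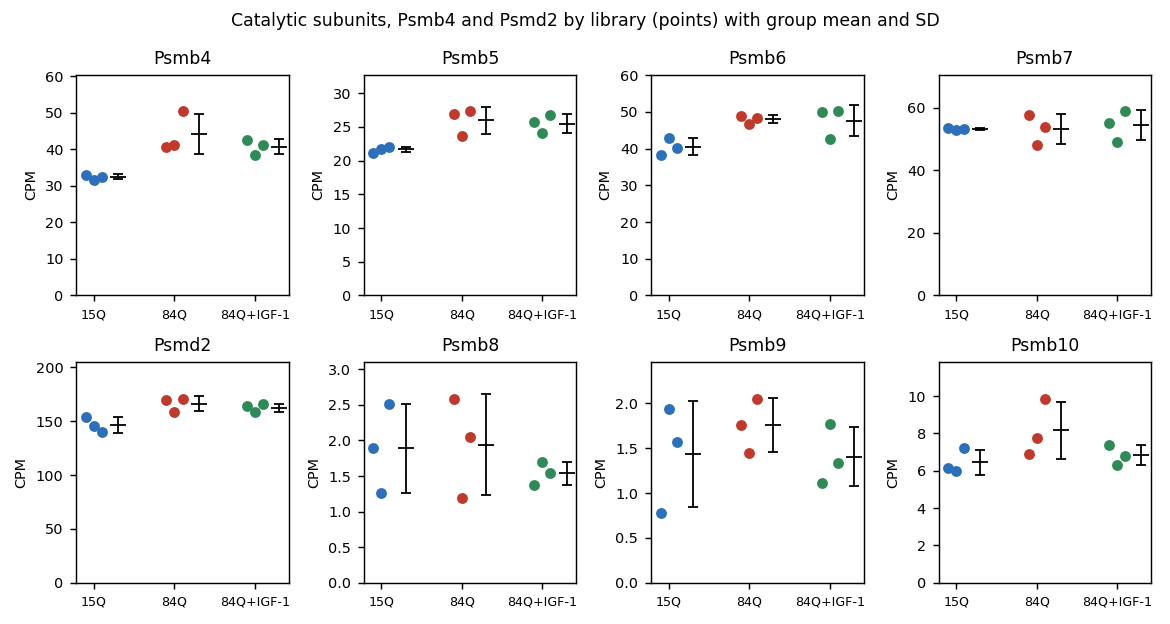
CPM of the catalytic subunits, of Psmb4 and of Psmd2 in each library, with the group mean and SD beside the points and axes that start at 0. Psmb4 stands at 31.7 to 33.1 CPM in 15Q and at 38.5 to 50.4 CPM in the other 6 libraries, while Psmb7 overlaps between all groups.

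In the alpha ring 6 of 7 tested genes lay above 0, with an unadjusted p under 0.05 for Psma2 and Psma7. The scaffold and receptor genes of the base had a median of 0.16 over 3 genes. Psmd2, the scaffold that docks ubiquitin shuttle proteins, stood at 154, 146 and 140 CPM in 15Q and at 170, 158 and 171 CPM in 84Q. All its 84Q libraries were higher, and the difference was 0.18 ± 0.06 on the log2 scale (adjusted p 0.109). The 8 lid genes had a median of 0.13, with 7 above 0 and 4 at an unadjusted p under 0.05.

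The ATPases, the chaperones and the activators had lower medians. They were 0.05 over the 6 ATPases, 0.06 over the 3 chaperones of the base and -0.03 over the 5 activators. Psmc4 was the only ATPase with an unadjusted p under 0.05. Psme4 was the only member with such a p that was lower in 84Q: it stood at 66.3, 74.2 and 75.5 CPM in 15Q and at 66.9, 61.8 and 63.3 CPM in 84Q. One 84Q library lay within the range of the 15Q libraries, and the log2 fold change was -0.17 ± 0.07 with an adjusted p of 0.196. For Psme1 the levels were 11.97, 11.94 and 13.56 CPM against 14.0, 12.4 and 13.8 CPM, for Psme2 11.6, 12.4 and 12.2 CPM against 12.5, 11.8 and 16.1 CPM, and for Psme3 101, 109 and 103 CPM against 103, 97.4 and 105 CPM. Their groups overlapped, and their log2 fold changes of 0.10 ± 0.09, 0.15 ± 0.12 and -0.03 ± 0.05 had adjusted p of 0.605, 0.525 and 0.760.

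**Figure D3:**
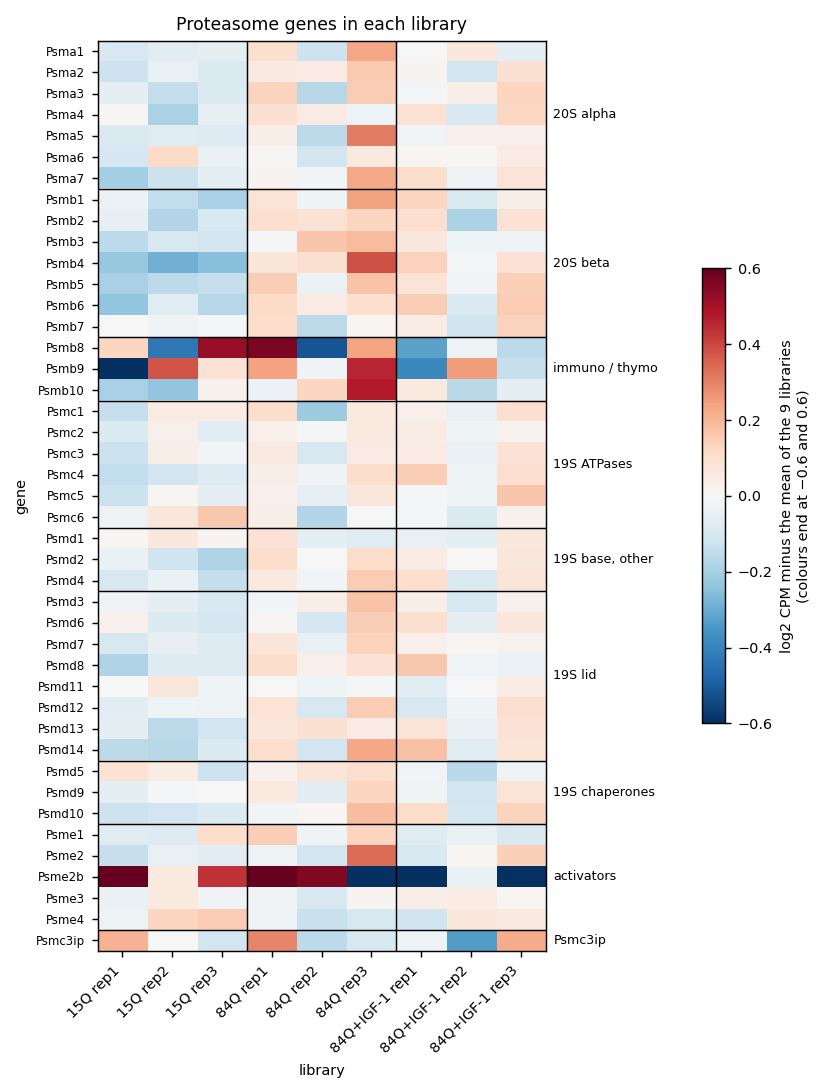
Log2 CPM of the 43 tested genes in each library, minus the gene's mean over the 9 libraries. Columns are libraries, rows are genes ordered by place in the particle, and colours end at -0.6 and 0.6. Of the 43 genes, 8 to 13 lie above their own mean in each 15Q library, 36, 13 and 37 in the 84Q libraries and 27, 11 and 34 in the 84Q+IGF-1 libraries.

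The libraries did not move as one block, as the heat map by library shows. In the 15Q libraries the median deviation of the members from their own means was between -0.08 and -0.05 on the log2 scale. In the 84Q libraries it was 0.07, -0.03 and 0.13, so that 84Q replicate 2 stood near the controls and 84Q replicate 3 highest. In the 84Q+IGF-1 libraries it was 0.04, -0.04 and 0.07, again with replicate 2 near the controls. Without 84Q replicate 2 the median log2 fold change of the members in 84Q against 15Q was 0.18, and without 84Q replicate 3 it was 0.08. 84Q replicate 2 is the library with the most choroid plexus RNA, and 84Q+IGF-1 replicate 2 had 27.6 CPM of those markers, among the lowest. The part of that RNA in these values was not tested.

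Fold changes also moved with transcript length over all genes. Among protein-coding genes outside the proteasome, the median log2 fold change of 84Q against 15Q was 0.10 for the 1005 with less than 1500 bases of exon, 0.09 for the 3283 of 1500 to under 3000 bases, 0.03 for the 6050 of 3000 to under 6000 bases and -0.06 for the 4776 of 6000 bases or more. The members of the same bins had medians of 0.15 (7 genes), 0.14 (18 genes), 0.17 (13 genes) and -0.03 (5 genes). All bins of members held under 20 genes. In a fit added after the data were seen, in which a smooth trend with exon length was removed from each library, the median of the members was 0.10 against 0.01 over all genes, and 31 of 43 were above 0, beside 51.4% of all genes. Psmb4 had a log2 fold change of 0.39 there with an adjusted p of 0.0239 in edgeR's quasi-likelihood test, and Psmb5 was called too, at 0.27 with an adjusted p of 0.0878, where 1.33% of all genes were called higher.

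**Figure D4:**
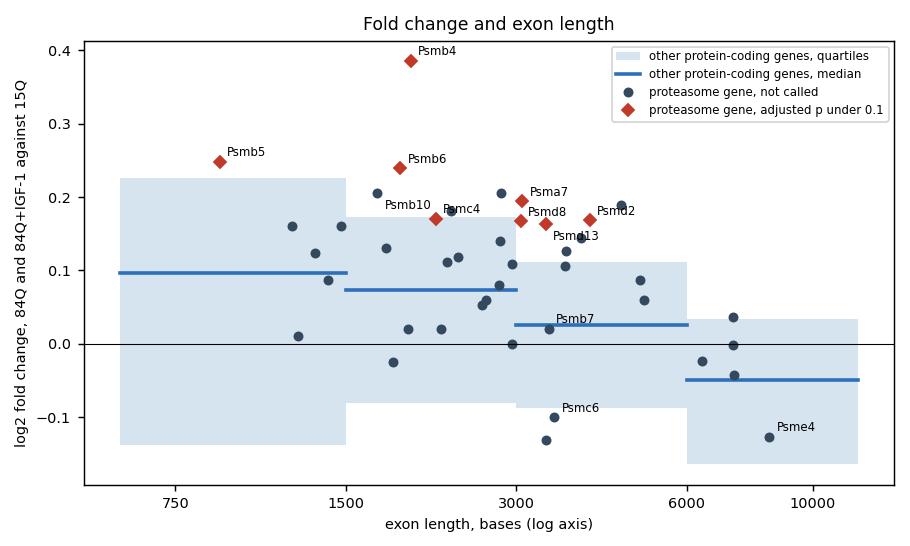
Log2 fold change of the tested members without Psme2b in the 6 libraries with the expanded tract against 15Q, by exon length (log axis). Diamonds are members called at an adjusted p under 0.1, and blue bars and bands are the median and quartiles of other protein-coding genes, whose median goes from 0.10 in the shortest bin to -0.05 in the longest.

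The second comparison, 84Q+IGF-1 against 15Q, uses the same control libraries, so that it is no independent repeat of the first. Psmb4 stood at 42.6, 38.5 and 41.1 CPM in the 84Q+IGF-1 libraries, all above the 15Q libraries. Its log2 fold change was 0.33 ± 0.08 (95% interval 0.14 to 0.51) with an adjusted p of 0.0777 in edgeR's quasi-likelihood test. It was the only member called, in the higher direction, where 1.04% of all genes were called. This call was lost without 15Q replicate 2 (adjusted p 0.211), without 15Q replicate 3 (0.215), without 84Q+IGF-1 replicate 1 (0.224) and without 84Q+IGF-1 replicate 3 (0.129). The same happened with the replicate number as a block (0.127), with Xist as a covariate (0.130) and with the choroid plexus markers as a covariate (0.330). It was also lost without the 3 libraries highest in those markers, a fit that keeps 1 library of 15Q. That makes 8 of the 19 alternative fits. With the threshold set at an adjusted p under 0.05 the main fit gave no call either.

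The median of the members was 0.08 against -0.01 over all genes, and 33 of 43 lay above 0, beside 48.9% of all genes. Without 84Q+IGF-1 replicate 3 the median was 0.049, and with the choroid plexus markers as a covariate it was 0.035. In 12 members all 84Q+IGF-1 libraries lay above the controls, or 27.9% where the share over all genes was 11.7%, and in 1, Psme2b, they lay below, where it was 13% of all genes. The unadjusted p was under 0.05 and the value higher in 8 members, beside 7.36% of all genes. In either direction the number was 5 without 84Q+IGF-1 replicate 1 or 3 and 15 without 84Q+IGF-1 replicate 2. The 3 smallest p after Psmb4 belonged to Psmc4, Psmb6 and Psmb5. Psmc4, an ATPase of the base, stood at 56.2, 57.5 and 59.1 CPM in 15Q and at 69.0, 61.0 and 66.9 CPM in 84Q+IGF-1, with no overlap and a difference of 0.19 ± 0.06 on the log2 scale (adjusted p 0.141). Psmb6 stood at 50.1, 42.7 and 50.2 CPM, with replicate 2 inside the range of the controls, and its log2 fold change was 0.23 ± 0.07 (adjusted p 0.143). Psmb5 stood at 25.7, 24.0 and 26.8 CPM, above the controls, and differed by 0.24 ± 0.08 on the log2 scale (adjusted p 0.162).

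**Figure D5:**
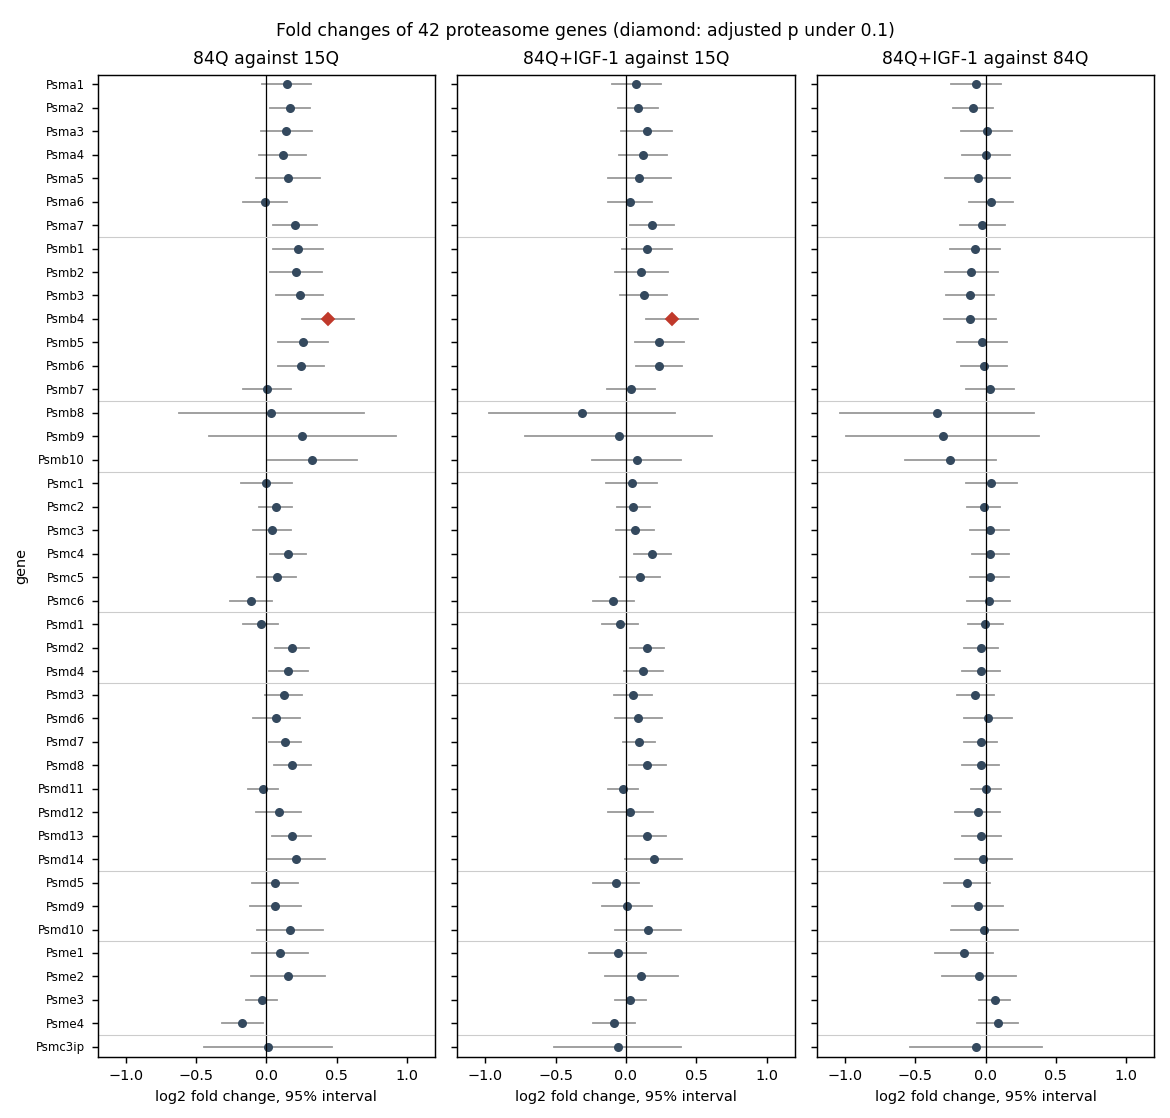
Log2 fold change of 42 members in 3 comparisons, with 95% intervals, genes ordered by place in the particle. Psme2b is left out for its wide intervals, and diamonds mark an adjusted p under 0.1, which Psmb4 reached at 0.44 and 0.33 in the comparisons with 15Q and no member reached in 84Q+IGF-1 against 84Q.

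The third comparison asks whether IGF-1 changed these genes in 84Q mice. No member was called, and 0% of all genes were called by edgeR's quasi-likelihood test. No member had an unadjusted p under 0.05 either, beside 4.68% of all genes, and the DESeq2 Wald test called 0 members and 3 of all genes. The median log2 fold change was -0.03 against -0.00 over all genes, with 13 members above 0, beside 48.7% of all genes, and 30 below. Its sign turned without 84Q replicate 3, at 0.0034, and without 84Q+IGF-1 replicate 2, at 0.0018. It was -0.082 without 84Q replicate 2, -0.052 without 84Q+IGF-1 replicate 3, -0.058 with the choroid plexus covariate and -0.014 with the exon length trend removed. In 2 members, Psmd5 and Psme1, all 84Q+IGF-1 libraries lay below all 84Q libraries, where the share was 4.5% of all genes, and in none did they lie above, where it was 3.96%.

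The smallest unadjusted p in that comparison were those of Psme2b, Psmd5 and Psmb10, at 0.0807, 0.104 and 0.116. Psme2b stood at 0.74, 0.45 and 0.60 CPM in 15Q, at 0.79, 0.66 and 0.17 CPM in 84Q and at 0.26, 0.41 and 0.21 CPM in 84Q+IGF-1. Its 84Q libraries were widely spread, and the log2 fold change of -0.96 ± 0.50 had an adjusted p of 0.969. Psmd5, an assembly chaperone of the base, stood at 36.9, 38.1 and 38.9 CPM in 84Q and at 35.8, 32.4 and 35.6 CPM with IGF-1, a log2 fold change of -0.13 ± 0.08, and the 15Q libraries, at 38.5, 37.4 and 33.2 CPM, overlapped with both. For Psme1, at 11.97, 12.27 and 11.82 CPM with IGF-1, the log2 fold change was -0.16 ± 0.09. Psme2, Psme3 and Psme4 overlapped with 84Q, at 12.01, 12.88 and 14.12 CPM, at 107, 107 and 105 CPM, and at 62.5, 70.9 and 70.3 CPM. For Psmb4 the log2 fold change with IGF-1 was -0.11, and its 95% interval of -0.30 to 0.07 included 0.

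With all 6 libraries that carry the expanded transgene set against the 3 of 15Q, in a fit that shares its libraries with the comparisons above, 8 members were called, all higher. That is 18.6% of the 43 tested, where 4.04% of all genes were called in that direction. They were Psmb4 (log2 fold change 0.39, adjusted p 0.0143), Psmb6 (0.24, 0.0462), Psmb5 (0.25, 0.0536), Psmd2 (0.17, 0.0618), Psmc4 (0.17, 0.0697), Psmd8 (0.17, 0.0779), Psma7 (0.19, 0.0802) and Psmd13 (0.16, 0.0875), with standard errors between 0.05 and 0.08. They come from the beta and alpha rings, the base and the lid. None reached a fold of 1.5, as 0.315% of all genes did, and 34 of 43 lay above 0, beside 49.2% of all genes. The median over the 43 members was 0.11 against -0.00 over all genes, and without 84Q replicate 3 it was 0.069. With the choroid plexus markers as a covariate it was 0.057, and Psmb4 alone was called in that fit and in the fit with Xist as a covariate. With 15Q replicate 3 left out the number called was 1, and when 84Q+IGF-1 replicate 2 was dropped instead it was 13. Psmb4 was among them whichever of the 9 libraries was left out.

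In 9 members, or 20.9%, all 6 libraries lay above the 3 controls, where the share over all genes was 5.93%. Among the called genes this held for all but Psmb6. Psmd2 stood at 164, 158 and 166 CPM with IGF-1 without overlap with the controls. Psma7, of the alpha ring (chromosome 2, 180036374 to 180042433, minus strand), stood at 51.9, 54.8 and 57.6 CPM in 15Q, 60.5, 59.2 and 70.2 CPM in 84Q and 64.5, 59.1 and 63.2 CPM in 84Q+IGF-1. Psmd8 and Psmd13 belong to the lid (both on chromosome 7, at 29174188 to 29180701 and at 140881968 to 140898643). Psmd8 stood at 68.2, 73.3 and 73.4 CPM in 15Q, 83.2, 79.0 and 82.1 CPM in 84Q and 86.6, 76.5 and 75.6 CPM in 84Q+IGF-1, and Psmd13 at 39.1, 36.3 and 37.4, at 42.5, 43.2 and 42.0, and at 42.8, 39.2 and 43.0 CPM. In Psmd13 the lowest of the 6 libraries, 84Q+IGF-1 replicate 2, lay just above the highest control. Psmc4 (chromosome 7, 28041707 to 28050101, minus strand) was at 63.8, 61.4 and 67.1 CPM in 84Q.

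Once the trend with exon length was removed, 4 of the 8 were still called, where 3.88% of all genes were called higher: Psmb4 at 0.34 (adjusted p 0.0129), Psmb5 at 0.26 (0.0350), Psmb6 at 0.20 (0.0674) and Psmd2 at 0.15 (0.0758). The values of Psma7, Psmc4, Psmd8 and Psmd13 were then between 0.13 and 0.16, with adjusted p between 0.122 and 0.142. Without the 3 libraries with the most choroid plexus RNA, which leaves 1 library of 15Q, 34 of 44 tested members, Psma8 included, had a log2 fold change above 0, beside 50.8% of all genes, with a median of 0.11. None was called, where 0.0978% of all genes were called higher. Psmb4 stood at 0.43 in that fit. The members called also differ in how far their reads are their own. Of the 31-base words in their annotated transcripts, 71.7% of those of Psmb5 and 31.6% of those of Psmd2 occur in other genes too, mostly processed copies, against none for Psmb4 and Psmc4 and 6.24% for Psmb6.

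The stretches just upstream of 4 of these genes, those with the smallest p, are given because regulators of transcription act on such stretches. They are taken from RefSeq (GRCm38.p6), are written 5′ to 3′ in the direction of the gene and end at or before the start of the annotated gene: Psmb4 from chr3:94886962-94887208 (minus strand), Psmb5 from chr14:54618023-54618245 (minus strand), Psmb6 from chr11:70525107-70525356 (plus strand) and Psmd2 from chr16:20651402-20651651 (plus strand). Capitals mark the letters that match a searched motif, on either strand.
Psmb4: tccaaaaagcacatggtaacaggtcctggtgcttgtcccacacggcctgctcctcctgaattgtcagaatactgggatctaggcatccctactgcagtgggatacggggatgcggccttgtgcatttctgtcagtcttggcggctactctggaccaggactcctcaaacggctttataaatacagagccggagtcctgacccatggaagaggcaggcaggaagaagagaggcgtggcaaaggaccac
Psmb5: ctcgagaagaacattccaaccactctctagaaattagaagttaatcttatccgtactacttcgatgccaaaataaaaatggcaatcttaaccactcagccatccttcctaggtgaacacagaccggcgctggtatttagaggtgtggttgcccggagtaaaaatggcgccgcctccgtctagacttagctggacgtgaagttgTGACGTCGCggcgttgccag
Psmb6: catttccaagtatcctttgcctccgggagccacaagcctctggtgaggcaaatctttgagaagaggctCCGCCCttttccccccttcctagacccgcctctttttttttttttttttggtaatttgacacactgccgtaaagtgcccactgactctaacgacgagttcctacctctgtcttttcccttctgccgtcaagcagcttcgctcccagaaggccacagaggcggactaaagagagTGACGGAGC
Psmd2: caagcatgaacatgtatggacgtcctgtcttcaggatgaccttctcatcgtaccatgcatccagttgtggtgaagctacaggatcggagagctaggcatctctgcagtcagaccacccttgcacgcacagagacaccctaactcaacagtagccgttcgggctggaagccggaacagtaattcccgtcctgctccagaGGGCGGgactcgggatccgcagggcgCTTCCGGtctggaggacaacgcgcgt
In Psmb5, and nearest the gene in Psmb6, the capitals are a core of the antioxidant response element, TGACNNNGC, the sequence read by Nfe2l1, the transcription factor that induces proteasome genes when the particle is inhibited, and by Nfe2l2, which acts under oxidative stress. The other capitals are a GC box, GGGCGG, in Psmb6 and Psmd2, and an ETS core, CCGGAAG, in Psmd2. The window of Psmb4 held none of the 6 motifs searched, which says only that these letters are not in it.

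RefSeq upstream sequence of 250 bases was found for 38 of the 45 members, and the same 6 motifs were counted on both strands in the 27025 genes with such a sequence. The ETS core occurred in 12 members, or 31.6%, and in 7.83% of all genes, and the GC box in 55.3% and 35.4%. The antioxidant response element core occurred in 5 members, or 13.2%, and in 11.5% of all genes, and the CCAAT box, CCAAT, in 39.5% and 37.5%. The core of the interferon-stimulated response element, a pair of GAAA words set a pair of bases apart, occurred in 7.89% of members and 3.46% of all genes. Those members were Psmb3, Psmd4 and Psmd9, none of them an immunoproteasome form. The gamma-activated site core, TTCNNNGAA, occurred in 2.63% and 8.13%, among members in Psmb8 alone. The overlap of the motifs with each other was not resolved, and a match is a description of the letters and no binding site. The genes of the table were not matched to the members in base composition or expression.

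The interferon-inducible forms of the catalytic subunits were a minor part of the message. Psmb8, which replaces Psmb5, was at 2.26, 1.51 and 3.05 TPM in 15Q, 3.02, 1.38 and 2.36 TPM in 84Q and 1.58, 2.01 and 1.85 TPM in 84Q+IGF-1. That is between 1.33% and 3.04% of the level of Psmb5 in the same library. Psmb9, which replaces Psmb6, was at 0.86, 2.13 and 1.77 TPM, at 1.90, 1.56 and 2.18 TPM and at 1.18, 1.94 and 1.48 TPM, or 1.04% to 2.30% of Psmb6. Psmb10, which replaces Psmb7, was higher, at 14.6, 14.1 and 17.3 TPM, at 16.0, 17.8 and 22.5 TPM and at 16.8, 14.9 and 16.2 TPM, or 22.8% to 36.7% of Psmb7. These percents rest on exon length, which is 3381 bases for Psmb8 and 899 for Psmb5, but 1705 for Psmb10 and 3421 for Psmb7. The coding lengths are close, at 828 and 792 bases and at 819 and 831. In CPM, which uses no length, the 15Q means were 1.89 for Psmb8 and 21.7 for Psmb5, and 6.45 for Psmb10 and 53.1 for Psmb7. On that scale the pairs lie closer together.

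None of the 3 differed between groups at the threshold. For Psmb8 the log2 fold change of 84Q against 15Q was 0.04 (95% interval -0.62 to 0.69) and for Psmb9 0.25 (-0.41 to 0.92), intervals that leave room for a fold of 1.5 either way in the first and upward in the second. For Psmb10 it was 0.33 ± 0.15 with an unadjusted p of 0.0444 and an adjusted p of 0.243, and 1 of the 84Q libraries lay within the range of the controls. With IGF-1 the log2 fold change of Psmb10 against 84Q was -0.25 ± 0.15 with an adjusted p of 0.969. The summed level of the immunoproteasome forms, as a percent of all 6 catalytic subunits in TPM, was 6.86, 6.59 and 8.07 in 15Q, 6.77, 7.49 and 8.81 in 84Q and 6.59, 6.85 and 6.11 in 84Q+IGF-1. The groups overlapped, and the means were 7.17%, 7.69% and 6.51%. Part of the exons of Psmb8 and Psmb9, 14.7% and 5.79%, lies opposite exons of Gm20496 and Tap1, and the strand setting of the counting is not stated.

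Microglia, in which these forms are inducible, were represented by 7 markers that summed to 158 to 192 CPM in 15Q, 193 to 236 CPM in 84Q and 169 to 185 CPM in 84Q+IGF-1. In 84Q against 15Q all 7 had a log2 fold change above 0, beside 49.7% of all genes, 4 had an unadjusted p under 0.05 and 2 were called, where 1.54% of all genes were called higher. In 84Q+IGF-1 against 84Q all 7 lay below 0, 2 had an unadjusted p under 0.05, and none was called. Leukocyte markers summed to 4.28 to 8.74 CPM in all libraries. The 9 genes of peptide loading and interferon signaling held 0 calls in any comparison, with 1 of them lower at an unadjusted p under 0.05 in 84Q+IGF-1 against 15Q and in the fit over 6 libraries. The part of microglia in the values of Psmb8, Psmb9 and Psmb10 was not tested.

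Other genes of the pathway were counted from lists. The 2 cap subunits with other names were Adrm1 and Sem1, and Adrm1, a ubiquitin receptor of the base, was higher in 84Q: it stood at 50.9, 51.6 and 49.2 CPM in 15Q and at 56.1, 59.6 and 64.0 CPM in 84Q, a difference of 0.24 ± 0.06 on the log2 scale (adjusted p 0.0650). Over the 6 libraries it was 0.22 (adjusted p 0.0283). Of the 6 assembly chaperones and inhibitors of the core, Psmg4 was called over the 6 libraries, at 0.60 ± 0.18 (adjusted p 0.0755), where 4.04% of all genes were called higher, from 1.04 to 1.74 CPM in 15Q to 1.92 to 2.40 CPM in the rest. None of the 13 proteasome-bound enzymes and shuttles was called in any comparison, by edgeR's quasi-likelihood test. At an unadjusted p under 0.05 there were 1, 1, 0 and 3 in the 4 comparisons, where the shares over all genes were 19.4%, 17.7%, 4.68% and 22.7%.

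All 4 ubiquitin genes had a log2 fold change above 0 in both comparisons with 15Q, beside 49.7% and 48.9% of all genes. In 84Q against 15Q 1 was called higher, in 84Q+IGF-1 against 15Q 1, and over the 6 libraries 2, where 1.54%, 1.04% and 4.04% of all genes were called higher. Ubb, which encodes a chain of ubiquitin repeats, stood at 1467 to 1523 CPM in 15Q and at 1670 to 1935 CPM in 84Q without overlap, a difference of 0.26 ± 0.06 on the log2 scale (adjusted p 0.0614). Among 11 regulators of proteasome genes, Mafg, a small Maf partner of Nfe2l1 and Nfe2l2, was called in 84Q+IGF-1 against 15Q at 0.33 ± 0.08 (adjusted p 0.0780) and over the 6 libraries at 0.25 ± 0.08 (adjusted p 0.0997), where 1.04% and 4.04% of all genes were called higher. It stood at 80.5, 88.8 and 78.4 CPM in 15Q, at 90.1, 84.8 and 102 CPM in 84Q, which overlapped with 15Q, and at 93.4, 114 and 103 CPM in 84Q+IGF-1. No other regulator was called in any comparison.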

How the data were processed

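RNA of the cerebellum of 9 mice, 3 per group, was sequenced as strand-specific, paired-end libraries. The authors trimmed reads with Trimmomatic 0.36, aligned them to GRCm38.p6 with HISAT2 2.2.0 and counted them per gene with featureCounts; the deposited values are these raw counts. The annotation, the strand setting and the treatment of reads with several matches are not given in the sources used here. Genes were named by matching identifiers to GENCODE vM21 (37681 of 37816).

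The members and gene lists were chosen with earlier results of these data known. Named genes are the called members, the catalytic pairs, Psma8, Psmb11, Psme1 to Psme4, the 3 members with the smallest p per comparison and called genes of other lists, of which some are not reported here; named after their values were seen were Psme2b where it lies below the controls and single members given for their level.

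Genes were tested with edgeR 4.0.16 (R 4.3.3): TMM, filterByExpr (19353 genes), 1 quasi-likelihood fit over 9 libraries, a separate fit of all 84Q libraries against 15Q, and Benjamini-Hochberg adjustment. Tests are two-sided, a call needs an adjusted p under 0.1, and the standard error comes from the F statistic. TPM used union exon lengths. The steps were checked on simulated data. Depth ran from 17482654 to 58269196 counts, intervals of shares were not needed, and the floor of 3 counts covers counting error only. The labels name no litter or day, so p-values measure the spread between these samples. Animal codes in the titles share leading numbers across the 84Q and 84Q+IGF-1 groups. Their meaning is not given, and dependence between such mice was not checked. Replicates differed by more than sampling noise (chi-square per gene 9.58 to 16.1). Alternatives were DESeq2 1.42.0, its size factors, no filter, only the groups compared, robust shrinkage, the replicate number, Xist (a sex-linked transcript) and choroid plexus markers as covariates, an adjusted p under 0.05, and each library left out. Removing the exon length trend (loess, span 0.5) and leaving out the 3 libraries highest in choroid plexus markers were added after the data were seen.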

Additional observations from a re-analysis of the deposited data

How the results depend on the processing

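With 3 libraries per group, the number of proteasome genes called followed the settings more than their direction did. It was 1 in 84Q against 15Q, 1 in 84Q+IGF-1 against 15Q and 8 in the fit of all 84Q libraries. In 84Q against 15Q it was 5 with the DESeq2 Wald test, 4 with no filter on low counts, 3 with only the libraries of the groups compared, 2 with the exon length trend removed and 0 without the 3 libraries highest in choroid plexus markers, a fit that keeps 1 library of 15Q and called 94 of all genes. In 84Q+IGF-1 against 15Q it was 2 with DESeq2 and 2 with no filter, and 0 with the Xist covariate, with the choroid plexus covariate, without those 3 libraries and at an adjusted p under 0.05. Over all 84Q libraries it was 11 with DESeq2, 5 with no filter, 4 with the length trend removed, 1 with the Xist covariate, 1 with the choroid plexus covariate, 0 without the 3 libraries and 2 at an adjusted p under 0.05. Leaving out each library gave 0 to 3, 0 to 3 and 1 to 13 calls. The same replicate numbers did not mark pairs (correlations of same-numbered libraries from -0.31 to 0.08). With the replicate number as a block, 1, 0 and 5 members were called.

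With the choroid plexus covariate the median log2 fold change was 0.057 over all 84Q libraries and 0.035 in 84Q+IGF-1 against 15Q, and that of 84Q+IGF-1 against 84Q was -0.082 without the 3 libraries. Leaving out each library gave medians of 0.079 to 0.18 in 84Q against 15Q, 0.049 to 0.11 in 84Q+IGF-1 against 15Q, 0.069 to 0.13 over all 84Q libraries and -0.082 to 0.0034 in 84Q+IGF-1 against 84Q. The immunoproteasome share in 84Q+IGF-1 was 6.98% with coding lengths and 7.15% on CPM. These values are not comparable with the shares of 15Q and 84Q given above, which use exon lengths. Psmb4 was higher than in 15Q under every setting run. The cause of these changes was not tested, except that leaving out libraries lowers the number compared.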
